A study of Mus musculus with 2 samples.

Results

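Imprinted gene clusters were examined through 456 array probes lying wholly within 9 genomic windows, out of 90526 non-control probes on the array. The windows were set by position on mouse build mm8, and the rule uses no measured value. They were named for the genes they hold: H19 to Kcnq1 (chr7:142200000-143300000), Snrpn to Ndn (chr7:59500000-62600000), Peg3 (chr7:6300000-6900000), Gnas (chr2:173900000-174600000), Dlk1 to Dio3 (chr12:109800000-111500000), Grb10 (chr11:11600000-12100000), Igf2r (chr17:12200000-13100000), Mest (chr6:30500000-30900000) and Peg10 (chr6:4500000-4900000). The probes tile 118 of the 23738 intervals in the authors' deposited table, and these intervals were taken as the DNA fragments the assay measures. Genomic DNA of the paraventricular nucleus (PVH) was compared with DNA of the arcuate nucleus (ARH), both from hypothalami of C57BL/6 mice of mixed sex at postnatal day 10. Each pool held 7 dissected pieces, so cell types within a nucleus were not separated, and each of the 2 arrays carried a PVH and an ARH pool in opposite dyes. PVH was in the red dye (Cy5) on replicate 1 and in the green dye (Cy3) on replicate 2. The labels conflict on the second nucleus: its tissue tag and the title of the series give ventromedial, while the sample titles, source names and design text give ARH, the name used here.

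An imprinted gene is expressed from only the maternal or only the paternal copy, and the choice is held by DNA methylation that is laid down in egg or sperm and kept through later development. Such genes sit in clusters, each with a control region methylated on a single parental copy, and many of them act on growth, metabolism and hormone signalling. Some are imprinted in certain cell types only, among them Gnas, which encodes the stimulatory G protein alpha subunit and is expressed mainly from the maternal copy in the mouse PVH. The comparison asks where methylation in these clusters differed between PVH and ARH. In the assay, SmaI first cuts unmethylated CCCGGG sites and leaves blunt ends, then XmaI cuts the methylated ones and leaves ends that accept an adaptor. PCR thus enriches fragments methylated at both ends. A log2 ratio above 0 means more signal from PVH. The ratio does not separate the parental copies and is not a methylation level.

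The site that the assay reads occurs in some promoters of these genes and not in others. RefSeq promoters on GRCm38.p6, each covering 250 bases before to 50 bases after the start, were searched for CCCGGG, which reads the same on both strands. The table held 9 of the 12 genes that name the windows, with 18 promoters, and 5 of those (27.8%) contained the site. Among all 32851 promoters given by RefSeq there, 4436 (13.5%) contained it, and among 67 promoters of a wider list of imprinted genes (49 of 66 genes matched) 9 (13.4%) did. No site lay in these stretches for Mest (3 promoters), Snrpn (4 promoters), Peg3, Ndn or Dlk1. The 4 promoters below each have a single site, in capitals, within CpG-rich sequence. Whether a second site lies near enough to form a measurable fragment was not checked. Gnas has 40 CpG pairs in the 300 bases, Igf2r 34, Grb10 45 (1 of its 2 promoters with a site is shown) and Dio3 25. Positions are those of GRCm38.p6, while the array uses mm8, so the promoters were not placed on the array's intervals.
Gnas chr2:174329756-174330055 (+ strand): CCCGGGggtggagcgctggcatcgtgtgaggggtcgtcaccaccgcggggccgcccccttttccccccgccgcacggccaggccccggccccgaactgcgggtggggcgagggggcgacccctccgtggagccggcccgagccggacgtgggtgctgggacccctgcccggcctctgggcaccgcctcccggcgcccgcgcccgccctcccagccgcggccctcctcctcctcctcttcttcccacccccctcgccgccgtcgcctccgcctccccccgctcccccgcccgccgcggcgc
Igf2r chr17:12769657-12769956 (minus strand): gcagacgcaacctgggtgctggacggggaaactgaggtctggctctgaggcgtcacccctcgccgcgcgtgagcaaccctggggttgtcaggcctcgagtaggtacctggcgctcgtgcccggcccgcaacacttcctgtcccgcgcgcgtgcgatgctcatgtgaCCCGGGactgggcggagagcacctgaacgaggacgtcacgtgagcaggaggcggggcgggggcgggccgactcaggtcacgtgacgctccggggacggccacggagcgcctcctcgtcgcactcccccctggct
Grb10 chr11:12037371-12037670 (minus strand): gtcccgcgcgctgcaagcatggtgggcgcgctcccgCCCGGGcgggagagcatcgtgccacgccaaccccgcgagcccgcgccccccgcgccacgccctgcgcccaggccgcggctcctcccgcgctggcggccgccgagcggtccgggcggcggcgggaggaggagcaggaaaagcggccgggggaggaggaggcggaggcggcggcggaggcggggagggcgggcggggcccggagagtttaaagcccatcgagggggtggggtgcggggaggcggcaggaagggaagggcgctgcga
Dio3 chr12:110278980-110279279 (+ strand): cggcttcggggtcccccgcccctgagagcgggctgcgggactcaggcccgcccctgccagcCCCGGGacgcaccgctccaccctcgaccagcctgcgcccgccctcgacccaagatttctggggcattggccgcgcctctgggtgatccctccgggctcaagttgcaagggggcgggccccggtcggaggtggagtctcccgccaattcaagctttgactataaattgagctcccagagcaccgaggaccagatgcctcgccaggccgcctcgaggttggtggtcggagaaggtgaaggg

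Of the 456 probes, 438 lay inside an interval of the deposited table and 18 outside any. The analysis kept 445 probes, since 1 spot was an outlier and 10 failed to rise well above background in either nucleus on at least 1 array. Of the 118 intervals, 115 had at least 2 kept probes and were tested. The other 3 were Snrpn to Ndn chr7:62343107-62343311 and chr7:62575231-62576957 and Grb10 chr11:11937635-11937845. Dlk1 to Dio3 held the most tested intervals (44), followed by H19 to Kcnq1 (32), Gnas (12), Snrpn to Ndn (7), Igf2r (6), Mest (5), Grb10 and Peg10 (4 each) and Peg3 (1). Coverage was uneven for the length of the windows: the Snrpn to Ndn window spans 3.1 Mb and has 30 probes, while the 1.1 Mb from H19 to Kcnq1 have 127. The intervals had a median length of 681.5 bp (201 to 1889 bp), against 794 bp over the whole array, and 54 of them (45.8%) touched a neighbouring interval, against 40.7% over the whole array.

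Signal was detected at nearly all of these probes in both nuclei. In both nuclei on both arrays, 442 of the 456 probes (96.9%) were well above background, against 91.4% of all probes. The share was 100% in the Gnas, Peg3 and Peg10 windows, 99.2% in H19 to Kcnq1, 97.1% in Dlk1 to Dio3, 96.7% in Snrpn to Ndn, 94.1% in Grb10, 87.5% in Igf2r and 83.3% in Mest. On both arrays, 9 probes failed that mark in PVH and 9 in ARH. No interval had all its probes that dim in either nucleus. Median raw signals over the whole array were 567 and 649 in PVH and 559 and 851 in ARH, against 51 and 42 in PVH and 39 and 53 in ARH on 1196 negative control spots.

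A stricter bar, chosen after the values were seen, separated the windows further. A raw signal at least 10 times the median negative control, in both nuclei on both arrays, was reached by 274 of the 456 probes (60.1%), against 50.2% of all probes. Dlk1 to Dio3 stood at 73.7% (129 of 175 probes). This window runs from Dlk1, a Delta-like transmembrane protein, to Dio3, the deiodinase that inactivates thyroid hormone. Mest, named for a protein of the hydrolase family, stood at 33.3% (6 of 18 probes). The other windows lay at 75% (Peg3, with 4 probes), 58.8% (Grb10), 56.5% (Gnas), 54.2% (Igf2r), 51.2% (H19 to Kcnq1), 50% (Snrpn to Ndn) and 46.7% (Peg10). Probes differ in how well they hybridize and neighbouring probes share a fragment, so these shares describe signal and were not tested.

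None of the 115 intervals in these windows passed an adjusted p under 0.05 for a difference between the nuclei (limma, two-sided, Benjamini-Hochberg over 22350 intervals). Over the whole array, 311 intervals (1.39%) passed that threshold. At an unadjusted p under 0.05 (limma) there were 6 (5.22%), 2 with more signal in PVH and 4 with less. Over all intervals the share was 6.18%, 422 with more signal in PVH and 960 with less. A ratio of at least 1.5-fold in the same direction on both arrays was found at 1 interval, in the Mest window (0.870%), against 2.3% of all intervals. Each of these shares is below that over the whole array, but they come from the same means and rest on at most 6 intervals. Whether they differ from the shares over the whole array was not tested. Each interval's mean had a 95% confidence interval of ± 0.50 on the log2 scale, that is 1.42-fold either way. The smallest mean that passed the adjusted threshold anywhere on the array was 0.87 in size, or 1.82-fold. For 109 of the 115 intervals (94.8%) the confidence interval lay within 2-fold in either direction, against 93.8% of all intervals. Because all intervals share the same width, this nearly restates the count at an unadjusted p under 0.05. It adds no separate support.

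The means of the 115 intervals ran from −0.83 to 0.74, while those of all intervals ran from −3.45 to 1.99. The median size of the mean, without its sign, was 0.144 in the windows and 0.154 over the whole array, and the 90th percentile was 0.434 and 0.402. The mean was above 0 at 67 intervals and below 0 at 48, against 11612 and 10738 of all 22350. Its median was 0.023 in the windows and 0.012 over the whole array. By window, the means ran from −0.72 to 0.51 in H19 to Kcnq1, from −0.66 to 0.74 in Dlk1 to Dio3, from −0.83 to 0.10 in Mest and from −0.15 to 0.48 in Gnas.

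Both arrays were above 0 at 25 intervals and below 0 at 31, and they had opposite signs at the remaining 59 (51.3%), against 51.1% of all intervals. Pearson's r between the arrays was 0.19 and Spearman's rho 0.093 over the 115 intervals, against 0.088 and −0.03 over all intervals, given as a description since intervals of an array share its hybridization. After loess on these signals, r was 0.49 and rho 0.39 in the windows, against 0.26 and 0.16 over all intervals. With no loess, r was 0.44 and rho 0.41 over the 32 intervals of H19 to Kcnq1, r was 0.22 and rho 0.099 over the 44 of Dlk1 to Dio3, and r was −0.03 and rho 0.15 over the 12 of Gnas. Of the windows with 4 to 7 intervals, r was above 0 in Mest (0.52) and below 0 in Snrpn to Ndn, Igf2r, Grb10 and Peg10 (−0.93 to −0.59). The median SD between the arrays was 0.208 in the windows and 0.232 over the whole array.

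Where the arrays disagreed in these windows, the red channel was the brighter one more often than the green. Because PVH changed dye between the arrays, opposite signs mean that the same dye was brighter on both. The red channel was brighter on both arrays at 43 of the 115 intervals and the green channel at 16, against 5660 and 5759 of all 22350. In Dlk1 to Dio3 the red channel was brighter on both arrays at 21 of 44 intervals, and the window's median ratio was 0.20 on replicate 1 and −0.13 on replicate 2. Gnas had medians of 0.27 and −0.04, and Grb10 of 0.28 and −0.06. Peg10 had medians of 0.22 and 0.036 and Igf2r of 0.15 and −0.019, while both arrays were below 0 in H19 to Kcnq1 (−0.069 and −0.050), Snrpn to Ndn (−0.035 and −0.076), Mest (−0.079 and −0.15) and Peg3 (−0.32 and −0.037). Over all intervals the medians were −0.017 and −0.0097. With a loess dye correction on the same signals, the Dlk1 to Dio3 medians were 0.085 and −0.04, with red brighter on both arrays at 10 of 44 intervals. Over the 115 intervals, the arrays then had opposite signs at 49 (42.6%), against 44.1% of all intervals. Red was brighter on both arrays at 31 of the 115. The turned sign cancels a shared dye offset in the mean of the arrays, but it stays in the SD and in any value from a single array.

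The Mest window on chromosome 6 held the most negative interval, chr6:30568296-30568584, a fragment of 289 bp with 2 probes. Its processed signals were 306 and 513 in PVH on replicates 1 and 2, against 589 and 832 in ARH. PVH was below ARH on both arrays and at both probes. The highest PVH signal stayed under the lowest ARH signal, though signals were not scaled between the arrays. The log2 ratios were −0.95 and −0.71, with a mean of −0.83 ± 0.17 (SD, n = 2 arrays) and a 95% confidence interval of −1.33 to −0.33, a 1.78-fold lower PVH signal. Its adjusted p was 0.073 in limma, the lowest among the 115 intervals. It ran from 0.017 to 0.34 under the other ways of processing and passed 0.05 under 4 of them. The touching intervals chr6:30565438-30567173 and chr6:30567174-30568295 had means of −0.23 and −0.03 and opposite signs on the arrays.

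H19 to Kcnq1, on distal chromosome 7, joins H19, a noncoding RNA, and Igf2, a fetal growth factor, to the potassium channel gene Kcnq1. At chr7:143150029-143150475 (447 bp, 4 probes) the processed signals were 935 and 986 in PVH, against 1366 and 1810 in ARH. All 4 probes were lower in PVH on both arrays, and the ratios of −0.56 and −0.88 gave a mean of −0.72 ± 0.23 (SD, n = 2), a 1.65-fold lower PVH signal (adjusted p = 0.197, limma). At chr7:143152915-143153308, which begins 2439 bp further on, the signals were 5728 and 6028 in PVH, against 3773 and 4465 in ARH. There all 4 probes were higher in PVH on both arrays, and the ratios of 0.59 and 0.43 gave a mean of 0.51 ± 0.12 (SD, n = 2; adjusted p = 0.775, limma). The window's most negative and most positive intervals were thus near neighbours of opposite sign, and neither passed the test.

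The interval chr7:143137716-143138987, singled out after its values were seen, was the other one of this window with an unadjusted p under 0.05. Its signals were 1794 and 2672 in PVH, against 3229 and 3285 in ARH. The ratios of −0.86 and −0.30 averaged −0.58 ± 0.39 (SD, n = 2; adjusted p = 0.531, limma). Across the window, 17 intervals had a mean above 0 and 15 below, with a median of 0.015. The median ratios on replicates 1 and 2 alone were −0.069 and −0.050. A median of interval means need not have the sign of the array medians.

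Dlk1 to Dio3 held the most positive interval, chr12:109942312-109943161 (850 bp, 3 probes). Its processed signals were 27168 and 20158 in PVH, against 14242 and 13749 in ARH. Every PVH value was above every ARH value, though signals were not scaled between the arrays, and all 3 probes were higher in PVH on both arrays. The ratios were 0.92 and 0.55, with a mean of 0.74 ± 0.27 (SD, n = 2) and a 95% confidence interval of 0.23 to 1.24, a 1.66-fold higher PVH signal (adjusted p = 0.174, limma). A further probe that crosses the interval's end, chr12:109943124-109943170, had ratios of 0.71 and 0.70.

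The most negative interval of that window was chr12:110636620-110636870 (251 bp, 4 probes), with signals of 393 and 590 in PVH against 675 and 848 in ARH. Its ratios of −0.79 and −0.53 averaged −0.66 ± 0.18 (SD, n = 2; adjusted p = 0.308, limma), and 3 of its 4 probes were lower in PVH on both arrays. Over the 44 intervals, 27 means were above 0 and 17 below, with a median of 0.039. A run of 3 touching intervals at chr12:111422424-111424560 had ratios of 0.45 to 0.54 on replicate 1 and −0.35 to −0.21 on replicate 2, so that red was the brighter channel on both.

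When the background was corrected with normexp and the dyes with loess, 3 intervals passed an adjusted p under 0.05: the Dlk1 to Dio3 interval at 0.73 (adjusted p = 0.012), the Mest interval at −0.69 (adjusted p = 0.018) and chr7:143150029-143150475 of H19 to Kcnq1 at −0.68 (adjusted p = 0.029, limma). These are 2.61% of the 115, against 3.02% of all intervals with that processing. The means of these intervals kept their direction there and were no larger, though single-array ratios could be. The Mest interval alone passed with a trended robust prior, where 2% of all intervals did, without the trend on interval length (1.71% of all), in the deposited table (1.7% of all) and at an adjusted p under 0.1 (1.86% of all). The median SE over all intervals was 0.16 with that processing and 0.26 with the processed signals.

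The Gnas window had its most positive interval at chr2:173971337-173972278 (942 bp, 4 probes). Its processed signals were 1095 and 1110 in PVH, against 729 and 855 in ARH. All 4 probes were higher in PVH on both arrays, and the ratios of 0.58 and 0.37 averaged 0.48 ± 0.15 (SD, n = 2). The 95% confidence interval of −0.03 to 0.98 includes 0 (adjusted p = 0.907, limma). This interval opens a run of 4 touching intervals over 2050 bp, chr2:173971337-173973386, whose means were 0.48, 0.15, 0.24 and 0.40. It held the most touching tested intervals with means of the same sign in these windows and was noticed after the values were seen. All 4 had the same sign on both arrays. Of the 14 probes in the run, all 14 had a mean above 0, from 0.084 to 0.66, and 12 were higher in PVH on both arrays. On replicate 1 their ratios lay between 0.011 and 0.97. On replicate 2 they lay between −0.17 and 0.48, with 2 probes below 0. The run was picked for the shared sign of its interval means, so the signs of its probes lend it no separate support. How often such runs occur over the whole array was not counted. The probes of touching fragments share cut sites, so they are not independent, and no interval of the run passed the test. On replicate 2, the ratio of the second interval was 0.036 with the processed signals, but −0.05 with a loess dye correction, −0.04 with normexp and loess and −0.05 without the trend on interval length.

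The last interval of the run was faint, at 73.3 and 57.0 in PVH against 57.1 and 41.5 in ARH. The most negative interval of the Gnas window was chr2:174085296-174087060, with signals of 224 and 242 in PVH against 250 and 264 in ARH and a mean of −0.15 ± 0.024 (SD, n = 2). A bright fragment near the start of the window, chr2:173942593-173942990, had 78839 and 31787 in PVH against 50179 and 49925 in ARH. Its ratios were 0.64 and −0.66. It was the only interval of the 115 at least 1.5-fold apart in opposite directions on the arrays, against 213 of all 22350.

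In the remaining 5 windows all means lay between −0.18 and 0.29. Igf2r encodes the receptor that clears Igf2, and at chr17:12834938-12835756 the signals were 255 and 185 in PVH against 212 and 156 in ARH, a mean ratio of 0.25 ± 0.015 (SD, n = 2). At chr17:12675877-12676809 they were 4538 and 4279 in PVH against 4918 and 4913 in ARH, a mean of −0.16 ± 0.058. Peg10, a gene derived from a retrotransposon, had 4 intervals with means above 0. The only one with the same sign on both arrays was chr6:4550840-4551325, at 443 and 356 in PVH against 359 and 326 in ARH (0.21 ± 0.13).

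The single Peg3 interval, chr7:6798503-6800098, had 983 and 1182 in PVH against 1218 and 1208 in ARH, a mean of −0.18 ± 0.20 (SD, n = 2); Peg3 encodes a zinc finger protein. In Snrpn to Ndn, which runs from a splicing protein gene to necdin, chr7:62256756-62258556 was at 262 and 163 in PVH against 267 and 201 in ARH (−0.17 ± 0.19). The interval that touches it, chr7:62258557-62259954, was at 696 and 534 in PVH against 631 and 520 in ARH (0.082 ± 0.072). All 7 tested Snrpn to Ndn means lay between −0.17 and 0.11. Grb10 encodes an adaptor that restrains insulin and growth factor signalling. Its 4 means lay between 0.001 and 0.14, and none of its intervals had the same sign on both arrays. None of the intervals named in these windows had an adjusted p under 0.99 in limma.

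At the level of single probes, none of the 445 tested probes passed an adjusted p under 0.05 (limma), against 0.544% of 84708 probes over the whole array, and 21 (4.72%) had an unadjusted p under 0.05, against 5.30%. At least 1.5-fold in the same direction on both arrays were 2 probes with more signal in PVH and 4 with less (1.35%), against 2.48% of all probes. A further 5 of the 445 were that far apart in opposite directions, against 1795 of all 84708. By the p-values of the authors' scanner software, which cover error within an array, 7 probes (1.57%) were under 0.01 in the same direction on both arrays, against 2.66% of all probes, and 8 (1.80%) in opposite directions, against 2.4%. At least 2 such probes in the same direction were found in 2 of the 117 intervals with a tested probe (1.71%), against 2.62% of all intervals. Without the trend on interval length, 1 of 427 tested probes passed an adjusted p under 0.05 in limma, against 0.777% of all probes. Every tested probe of an interval had the same sign on both arrays at 21 of 115 intervals (18.3%), against 17.2% of all intervals.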

How the data were processed

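Genomic DNA of PVH and ARH was compared on 2 Agilent arrays, labelled as biological replicates with a dye swap. The p-values rest only on the spread between these arrays, which for intervals was pooled over all of them. The authors' scanner files hold linear intensity values, extracted with Agilent Feature Extraction 10.5.1.1 per the file headers (9.1.3.1 per the submitters' processing notes), and probe positions on mm8. Per the file headers, background was subtracted from the processed intensity, a spatial trend was removed and a linear dye factor applied. The deposited log10 ratio is red over green, and the deposited p-value of each spot comes from the software's error model. The authors' deposited table holds log2 values of PVH over ARH per interval; they followed the scanner values with r = 0.965 and 0.980, and their centring is unknown (medians 0.046 and 0.018).

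From the processed signals, log2 PVH over ARH was computed, with the sign turned on replicate 2 and each array centred on its median, with no loess or quantile step. Left out were 6110 control spots, 79 outlier spots and every probe that on an array failed the flag for a signal well above background in both channels. Probes were averaged per interval (at least 2), and 22350 intervals and 84708 probes were tested with lmFit and eBayes of limma 3.58.1 in R 4.3.3, with Benjamini-Hochberg adjustment at 0.05. With 1 residual degree of freedom, the estimated prior was infinite, so each interval had an SE of 0.26. An interval's p-value thus depends on the size of its mean and not on its own SD. The number of arrays limits the precision. Promoters were searched with Python 3.11.15.

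Alternatives changed the background correction (normexp, offset 50, on median signals in place of the planned mean signals), dye correction, centring, filters, prior, length trend, probe summary, threshold and source of values, and used single arrays. Intervals were named by a rule: any past the threshold, and the most positive and most negative of each window among those with the same sign on both arrays. The parts of the rule on genes and on intervals dim in 1 nucleus gave no interval. The windows, gene lists and tests were chosen with earlier results of these data known.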

Additional observations from a re-analysis of the deposited data

How the results depend on the processing

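No named interval reversed direction under the alternatives run. Single arrays could not reverse one, because each was picked among intervals with the same sign on both arrays. The named intervals were also the extremes of their windows, so this says little about the other intervals. With a test, the named intervals kept their side of the threshold in 162 cases and passed it in 6; single arrays gave 26 further values with no test. Counts moved by over 1.5 times, medians by over the SD between arrays or the correlation by over 0.1, in 37 cases and by less in 175; the cause was not tested. The count of intervals in the windows past the threshold, 0, became 3 with normexp and loess, 1 each with a trended robust prior, with the length trend removed, with the deposited table and at an adjusted p under 0.1 (the Mest interval each time), and 2 by the software's error model, both lower in PVH. For probes in the windows, 0 became 1 with the length trend removed and 7 by the error model. Over the whole array, 311 intervals became 676 after normexp with loess and 37 after normexp without it, and 461 probes became 892 after normexp with loess, 789 with loess alone and 1144 with the trended robust prior. The share with more signal in PVH was 100 of 311, 232 of 676 and 4 of 37 intervals. The count of intervals at least 1.5-fold apart in the same direction, 1, became 0 with normexp alone, with at least 3 probes and at 2-fold, and 3 each with loess alone and with the length trend removed. Shares over all intervals at these settings are not given here, so the counts are not read as a result about the windows. On a single array, where directions cannot be compared, 7 to 13 intervals were at least 1.5-fold apart. The Mest median of −0.15 was −0.054 with normexp alone, −0.065 with the length trend removed, −0.091 with at least 3 probes and −0.092 with the deposited table. The H19 to Kcnq1 median of 0.015 was −0.0034 with loess alone and −0.039 with the length trend removed, and the Snrpn to Ndn median of −0.028 was 0.037 with the length trend removed and 0.0065 with the deposited table. The Igf2r median of −0.026 was 0.016 after normexp with loess, 0.033 after normexp alone, 0.063 with the length trend removed and 0.0004 with probes well above background throughout. Leaving out an array, the medians ranged from −0.069 to −0.050 for H19 to Kcnq1, −0.076 to −0.035 for Snrpn to Ndn, −0.040 to 0.27 for Gnas, −0.019 to 0.15 for Igf2r, −0.13 to 0.20 for Dlk1 to Dio3, −0.064 to 0.28 for Grb10 and −0.15 to −0.079 for Mest. The correlation between arrays of 0.19 was 0.48 after normexp with loess, 0.49 after loess alone and 0.087 after normexp alone. The test was already paired within arrays, because each array is a ratio of both nuclei. Fragments with signals near the negative controls have the least certain ratios. Gene positions on mm8 were not used here.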
